A study of Mus musculus with 10 samples.

Results

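The regions described here were 840 intergenic stretches of chromatin, away from genes, that carried an ATAC-seq peak in both WT libraries of retinal cells and in neither cKO library. ATAC-seq marks open chromatin by where a transposase can insert into DNA. The regions were chosen, among the 16600 regions of the comparison of cKO with WT, by their overlap with the peak lists of the 4 libraries (at least 1 bp) and by their position, more than 1000 bp from both ends of every gene on GRCm38 and inside no gene. They made up 5.06% of all regions and 9.19% of the 9145 regions with peaks in both WT libraries alone. The open state in WT and the lack of a cKO peak are therefore the measured values that chose the members (selected on the peak calls of the same 4 libraries), and the signals of the 2 groups below are given as a description.

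All mice were C57BL/6 of 8 to 10 weeks with *Arid1a* flanked by loxP sites (*Arid1a* fl/fl). WT mice received AAV2-GFP in the vitreous body and cKO mice AAV2-Cre, after which the labels give their genotype as *Arid1a* del/del. The paper gives a lower titer for AAV2-Cre than for AAV2-GFP, so virus, titer and genotype cannot be told apart. Both viruses used the CMV promoter, which is not specific to one cell type, so Cre could act in any cell the virus entered. Every mouse had an optic nerve crush (ONC) 2 weeks after injection, and 3 days later retinal cells stained for Thy1.2, several retinas pooled per sample, were sorted to enrich retinal ganglion cells (RGCs). ATAC-seq had 2 libraries per group and RNA-seq had 3. For RNA-seq, no source used here says whether the libraries came from separate pools of animals, so p-values measure the spread between these libraries, which may be technical.

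ARID1A is a DNA-binding subunit of the BAF (SWI/SNF) complex, which slides or evicts nucleosomes and is known for keeping enhancers accessible. Enhancers are stretches of DNA, often far from genes, where transcription factors bind and raise the activity of genes at a distance. The AP-1 factors of the FOS and JUN families bind at many enhancers. Many of the genes that encode them, and many of the EGR and NR4A families, are immediate early genes. Neurons and other cells switch such genes on quickly after activity, stress or injury.

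Sequences of the 840 regions themselves are not printed, since no genome was used here. Shown instead are the starts of 5 nearest genes from the gene lists described below, those whose window before a RefSeq start lay wholly outside the gene and within or partly within a region of the comparison. The windows hold the 250 bases before the start, 5′ to 3′ on the gene's strand, on GRCm38.p6. They are chr12:85473640-85473889 for *Fos* on the + strand, chr12:25096093-25096342 for *Id2* on the - strand, chr1:128592300-128592549 for *Cxcr4* on the - strand, chr13:112463820-112464069 for *Il6st* on the + strand and chr1:22806159-22806408 for *Rims1* on the - strand. Capitals mark, on either strand, GGGCGG, to which SP and KLF factors bind, and TGACG, the core of the cyclic AMP response element (CRE), to which CREB and ATF factors bind, both chosen after the sequences were read.
Fos: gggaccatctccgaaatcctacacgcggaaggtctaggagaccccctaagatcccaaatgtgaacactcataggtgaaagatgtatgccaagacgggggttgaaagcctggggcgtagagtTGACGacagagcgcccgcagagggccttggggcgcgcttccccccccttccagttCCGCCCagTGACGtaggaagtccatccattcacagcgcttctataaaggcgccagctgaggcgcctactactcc
Id2: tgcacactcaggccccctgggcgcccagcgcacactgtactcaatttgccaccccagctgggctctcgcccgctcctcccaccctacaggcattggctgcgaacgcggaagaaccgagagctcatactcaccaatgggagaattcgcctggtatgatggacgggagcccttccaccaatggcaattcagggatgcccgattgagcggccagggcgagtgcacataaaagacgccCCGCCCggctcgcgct
Cxcr4: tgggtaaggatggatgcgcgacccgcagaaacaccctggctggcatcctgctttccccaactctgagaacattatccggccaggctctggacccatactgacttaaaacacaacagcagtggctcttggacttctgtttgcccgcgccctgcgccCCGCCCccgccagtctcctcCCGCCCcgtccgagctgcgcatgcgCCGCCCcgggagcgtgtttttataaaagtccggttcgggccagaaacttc
Il6st: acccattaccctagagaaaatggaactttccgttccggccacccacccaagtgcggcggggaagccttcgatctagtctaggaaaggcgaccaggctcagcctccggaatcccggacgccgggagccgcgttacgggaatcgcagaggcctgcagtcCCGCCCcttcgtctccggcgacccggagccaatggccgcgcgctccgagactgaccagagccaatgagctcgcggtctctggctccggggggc
Rims1: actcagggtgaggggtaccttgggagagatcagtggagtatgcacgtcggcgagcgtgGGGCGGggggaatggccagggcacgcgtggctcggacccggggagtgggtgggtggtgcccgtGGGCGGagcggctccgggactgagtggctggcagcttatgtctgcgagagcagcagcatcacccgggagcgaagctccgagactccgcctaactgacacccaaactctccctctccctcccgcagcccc

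GGGCGG was in each of the 5 windows, 3 times in that of *Cxcr4*, 2 times in that of *Rims1* and once in the others, and it was found in 42.6% of the 21263 RefSeq windows of this length at protein-coding genes. TGACG was present 2 times in the *Fos* window and in none of the other 4, and in 20.2% of those at protein-coding genes. The longer CRE TGACGTCA, which contains TGACG, was in none of the 5 and in 1.92%, and the AP-1 motif TGANTCA was also in none of the 5 and in 6.13%. These letters describe the windows alone and do not show that a factor was bound. The regions over these starts had a Conc, the log2 of the group's mean normalized reads, of 5.99 in WT and 0.83 in cKO at *Fos*, 5.62 and 2.64 at *Id2*, 4.82 and 2.99 at *Cxcr4*, and 6.08 and 3.63 at *Il6st*, each with peaks in both WT libraries alone. The region at *Rims1*, with 4.22 and 3.01, had a cKO peak as well.

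One member lay beside a cluster of *let-7* microRNA genes and was among the 8 with the highest WT signal, and another lay beside *Mir17*. MicroRNAs pair with messenger RNAs through their seed, bases 2 to 8, given in capitals below for the mature 5p strands from RefSeq.
let-7a-5p: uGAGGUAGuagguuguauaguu
let-7f-5p: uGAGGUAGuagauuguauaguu
let-7d-5p: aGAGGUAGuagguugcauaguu
miR-17-5p: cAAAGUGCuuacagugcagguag

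The 3 *let-7* strands share the seed GAGGUAG, and miR-17-5p has AAAGUGC. The *let-7* member, at chr13:48545557-48546890, was 7285 bp from the *Mirlet7a-1* hairpin, 7640 bp from that of *Mirlet7f-1* and 9443 bp from that of *Mirlet7d*. Its signal was 7.23 in WT and 3.31 in cKO (Conc). The member at chr14:115041947-115042504 was 1167 bp from the *Mir17* hairpin and had a Conc of 4.66 in WT and 0.85 in cKO, and a further member 25337 bp from it had 3.63 and 2.21. *Mirlet7a-1* was listed at 0 TPM in all 6 RNA-seq libraries, as was *Mir17*. No small RNA library is described, so these values do not show whether the mature microRNAs were absent.

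The libraries differed in their peaks before any selection. WT replicates 1 and 2 held 76522 and 42265 peaks, of which 13.6% and 24.4% overlapped a peak of the other replicate. The cKO replicates held 55902 and 68317 peaks, of which only 3.39% and 2.77% were shared with each other. In RNA-seq, *Arid1a* was 18.8, 11.7 and 14.1 TPM in WT and 18.8, 27.9 and 25.0 TPM in cKO (log2 fold change 0.66 ± 0.28 SE, limma adjusted p = 0.274), that is, with no decrease under the cKO label. By staining of retinal sections, which are other samples than these libraries, the paper reports less ARID1A protein in RGCs after AAV2-Cre. Why *Arid1a* RNA was not lower here was not tested. Whether RNA-seq labels were exchanged cannot be settled from these RNA values, so every RNA direction below is that of the libraries as labelled. Summed RGC markers were 142 to 199 TPM in WT and 224 to 250 TPM in cKO, with 10 of 10 genes listed. *Pou4f2* was at 0 in every library except cKO replicate 3 (0.143 TPM). *Pou4f1* was at most 3.6 TPM and *Slc17a6* at most 1.57 TPM in any library, while *Isl1* alone was 51.9 to 104 TPM. The sum thus does not show that each RGC marker was expressed or higher in cKO. The 6 rod markers summed to 12300 to 17100 TPM in WT and 25000 to 47700 in cKO, the 6 T cell markers to 487 to 1550 and 133 to 312, and the 6 myeloid markers to 1950 to 3180 and 774 to 1090. In such bulk samples, fewer cells of a type and less RNA per cell cannot be told apart.

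Of the 3551 intergenic distal regions in the comparison, 970 had peaks in both WT libraries, and 130 of these also had a peak in a cKO library (13.4%, Wilson 95% interval 11.4 to 15.7%). The same share was 11.2% (9.85 to 12.6%) of 1999 distal regions inside genes and 10.3% (9.64 to 11.0%) of 7278 regions at gene ends. The intervals cover counting error only, since regions of the same libraries are not replicates. The remaining 840 are the members.

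Members had a median Conc of 3.81 in WT (interquartile range 3.38 to 4.38, range 0.46 to 8.0), which corresponds to 14.0 normalized reads. In cKO the median was 2.04 (1.27 to 2.59, range -0.75 to 4.06), or 4.1 reads. The difference of cKO minus WT had a median of -1.94 on the log2 scale (interquartile range -2.53 to -1.4, range -5.29 to 0.12). Over 2-fold lower were 759 members (90.4%), where 59.6% of all regions in the comparison were, and over 4-fold lower were 403 (48.0%), where 40.6% of all regions were. The table gives 1 value per group and none per library, so no spread between libraries can be stated for any region.

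The whole comparison was shifted in the same direction, with a median difference of -1.57 over all 16600 regions and 77.3% of them lower in cKO. Each region needed peaks in at least 2 libraries, and 9145 had them in both WT libraries alone. How far the way regions entered the comparison went into this direction was not tested. Counted from that median, the members' own median was -0.37, 566 of 840 (67.4%) lay below it, and 196 (23.3%) were over 2-fold below it, compared with 27.2% of all regions. At the low end the values reached a limit. The lowest cKO value in the table was -0.75, or 0.595 reads, and 30 members had it, so their differences were bounded by it. In the plot of signals, these form the row of points at the bottom.

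**Figure D1:**
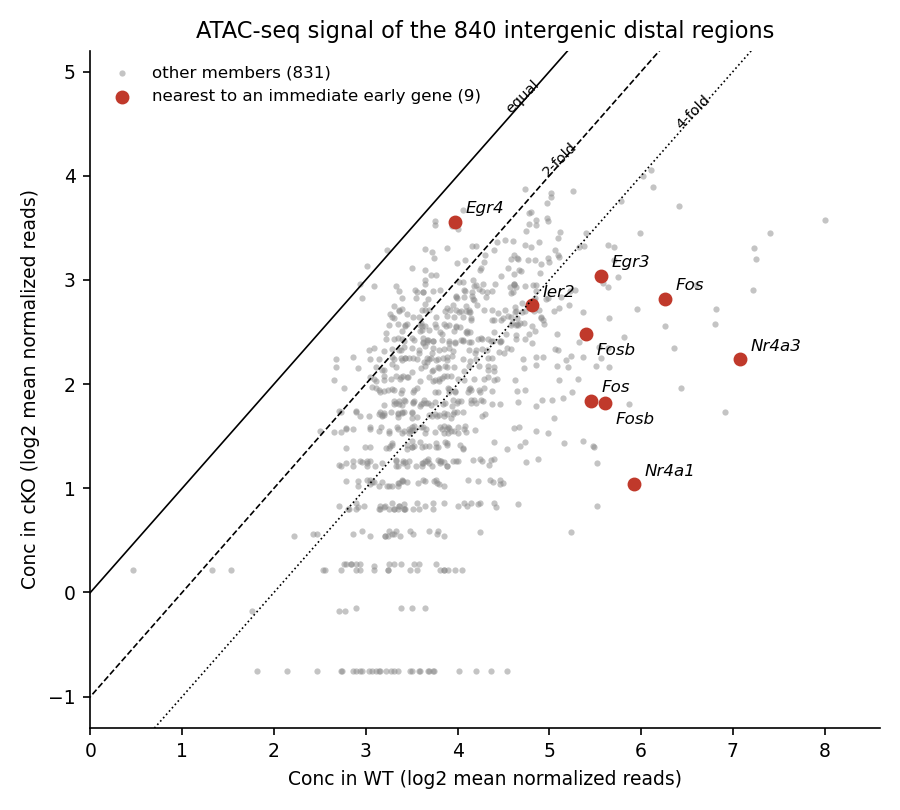
Conc (log2 mean normalized reads) of the 840 regions in WT (horizontal) and cKO (vertical), 1 point per region, with lines for equal signal and for 2-fold and 4-fold lower signal in cKO. The 9 regions nearest to an immediate early gene (red) had WT values of 3.97 to 7.08, and 8 of them sit at a WT Conc of 4.81 or more.

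Set beside regions with the same peak pattern at other positions, members had the lowest median in WT. Median WT Conc was 4.2 for the 1776 distal regions inside genes and 5.07 for the 6527 regions at gene ends. Their median differences were -2.0 and -2.68, and 89.9% and 97.6% were over 2-fold lower. Stronger WT signal went with a larger difference among members too (Pearson r = -0.38 over 840 regions of the same libraries, a description with no test, as WT signal is part of both values). Within a WT Conc of 2 to 3, the median difference was -1.88 for 65 members, -1.5 for distal regions inside genes and -1.33 at gene ends. Within 3 to 4, the median difference was -1.77 for 437 members, -1.54 inside genes and -1.81 at gene ends. Within 4 to 5 the values were -2.01, -2.01 and -2.27, within 5 to 6 they were -2.91, -2.7 and -2.82, and within 6 to 7, with 12 members, they were -3.68, -3.58 and -3.55. Members had the most negative of the 3 medians from 2 to 3 and from 5 to 7, and gene ends had it from 3 to 5.

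The 130 intergenic regions that also had a cKO peak had nearly the same WT signal as the members, with a median Conc of 3.85, but a cKO median of 3.05. Their median difference was -0.8, and 52 of them (40.0%) were over 2-fold lower. This contrast was built into the selection, which asked for the absence of a cKO peak.

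**Figure D2:**
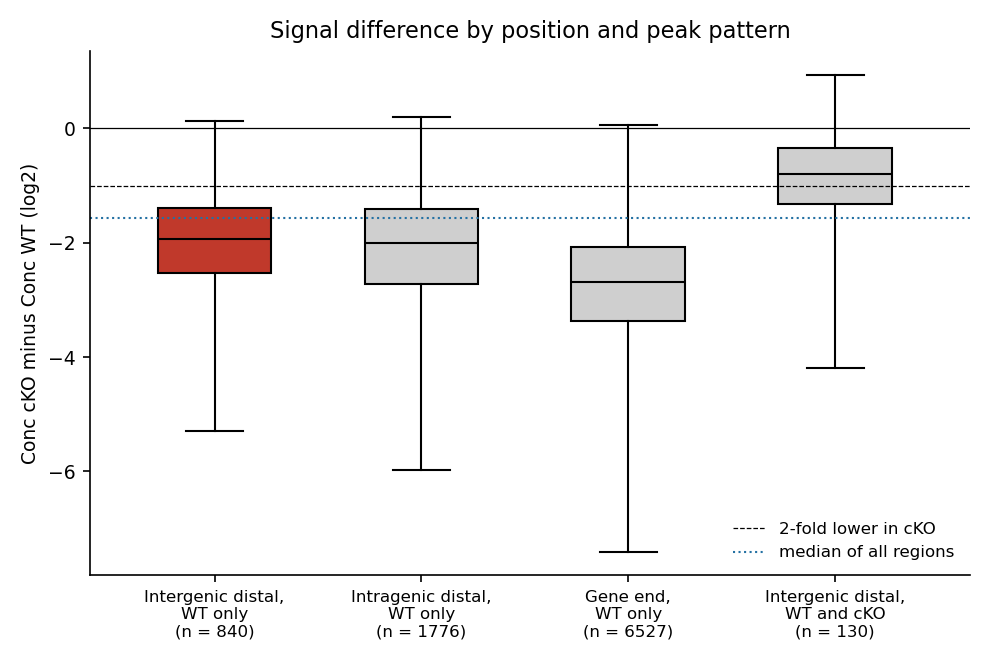
Difference in Conc (log2, cKO minus WT) for members (red) and for 3 other sets of regions (grey); boxes span the quartiles with the median as a line, and whiskers reach the lowest and highest value. The members' median of -1.94 lies below the median of all regions, -1.57 (dotted), and above that of gene ends, -2.68.

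Members were 608 bp wide at the median (interquartile range 469 to 790 bp, range 251 to 2126 bp), and wider ones had higher WT signal (r = 0.49 over 840 regions, description only). Regions inside genes measured 652.5 bp and those at gene ends 804 bp. The peaks of the 2 WT libraries within a member had median widths of 405 and 403 bp, and their centres lay a median of 137 bp apart. Centres within 100 bp of each other were found in 37.1% of members, 43.1% of regions inside genes and 48.9% of regions at gene ends.

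The members were spread over 21 chromosomes, from 70 on chromosome 1 to 1 on chromosome Y. The nearest gene end was 13690 bp away at the median (interquartile range 5712 to 41660 bp). It was within 5000 bp for 21.8% of members, within 10000 bp for 40.6%, and over 100000 bp away for 76 of them. Nearer members had higher WT signal. Median WT Conc was 4.08 up to 5000 bp, 3.91 from 5000 to 20000 bp, 3.65 from 20000 to 100000 bp, and 3.42 beyond. The median difference changed little over the same bins, at -1.96, -1.96, -1.95 and -1.82. Where the gene's strand was known, for 453 members, 41.5% lay upstream of the gene.

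Members just over the distance limit were at 1039 bp from *Gm4753* (difference 0.06), 1039 bp from *Dusp6* (-2.71) and 1053 bp from *Midn* (-3.7). Just under the limit, and so not members, were regions at 1000 bp from *Mir125b-2* (-2.58), 994 bp from *Trim8* (-2.71) and 991 bp from *Lsm11* (-1.93). *Gm4753* was nearest to 1 of only 3 members whose signal was not lower in cKO, the others being nearest to *Gm32544* (0.12) and *Sorcs2* (0.02), named after their values were seen.

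**Figure D3:**
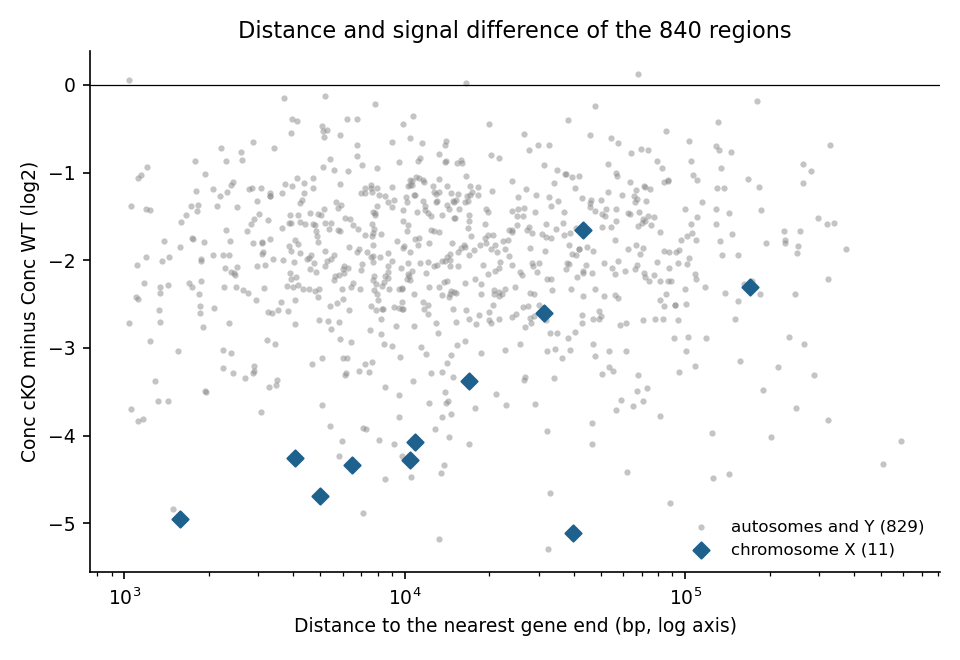
Distance of each member from the nearest gene end (bp, log axis) against its difference in Conc (log2, cKO minus WT). The cloud keeps nearly the same height from 1039 to 588729 bp, while the 11 members on chromosome X (blue) have a median of -4.25 against -1.94 for the 828 on autosomes.

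The strongest member in WT, at chr13:85126618-85127505, was 61872 bp from *Ccnh*, which encodes cyclin H, and had a Conc of 8.0 in WT and 3.58 in cKO. It was followed by regions nearest to *Eea1* (7.4 and 3.45), *Slc2a3*, the neuronal glucose transporter GLUT3 (7.25 and 3.2), *Mirlet7a-1*, *Gm32658* (7.22 and 2.9) and *Nr4a3* (7.08 and 2.24). The *Eea1* and *Gm32658* regions were narrow for their signal, at 326 and 259 bp, and the latter was 505838 bp from any gene end. The most negative difference, -5.29, belonged to chr10:118103175-118103692, 32505 bp from the long noncoding RNA *Gm32663*, with 4.54 in WT and the lowest value, -0.75, in cKO. Of the 8 most negative, 3 were on chromosome X, and 4 had the lowest cKO value.

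Few members lay close together. With gaps of at most 50000 bp there were 42 pairs and 3 runs of 3 members. A run on chromosome 1 spanned *Rpl30-ps6* and *Ptma*, whose product prothymosin alpha binds histones, with WT Conc of 6.91, 6.02 and 3.91 and cKO Conc of 1.73, 4.0 and 2.35. A run on chromosome 11, downstream of *Bahcc1*, had WT values of 4.23, 3.75 and 3.88 and cKO values of 2.17, 1.92 and 2.23. The third, on chromosome 1 beside *LOC108167736* and *Gm30388*, had 4.4, 5.2 and 2.89 in WT and 2.04, 2.16 and 1.73 in cKO.

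The members had 796 distinct nearest genes. By the type of that gene, 308 members were nearest to a protein-coding gene, 279 to a long noncoding RNA, 195 to a pseudogene and 9 to a microRNA. Most nearest genes had no region of the comparison within 1000 bp of their own ends (632 of 796, 79.4%). Among the 294 protein-coding ones, 160 (54.4%) had none, 119 (40.5%) had one open in both WT libraries alone, and 12 had one with a cKO peak as well. The same shares over all RefSeq genes are not given here, so these counts do not set nearest genes apart from other genes.

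Immediate early genes were nearest to 9 members. Of the 30 genes in a list of AP-1 and immediate early genes, 7 (23.3%) were the nearest gene of at least 1 member, where 1.59% of 49943 RefSeq genes and 1.34% of 21887 protein-coding genes were. The list, like the others here, was chosen with earlier results of these data known, and no test was made of the share. No nearest gene came from the lists of retinal development factors (0 of 59), axon injury and regeneration (0 of 36), photoreceptor genes (0 of 26) or BAF and other remodelers (0 of 45). Apoptosis genes gave 1 of 49 (*Bbc3*), JAK-STAT signaling 1 of 44 (*Il6st*), immune cell genes 2 of 47 (*Cxcr4*, *Id2*), and synaptic genes 1 of 52 (*Rims1*, with 2 members).

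The 9 members beside immediate early genes had a median WT Conc of 5.56, compared with 3.8 for the other 831, and a median difference of -3.44, compared with -1.94. The 2 sets were not matched in WT signal. Among all members, the median difference was -2.91 at a WT Conc of 5 to 6 and -3.68 at 6 to 7. *Fos*, a subunit of AP-1, had a member 1313 bp upstream (chr12:85472073-85472577, Conc 5.45 in WT and 1.84 in cKO) and another 8506 bp downstream (chr12:85485780-85486591, 6.26 and 2.82). Both flank the start shown above, whose cKO value of 0.83 was lower than those of the members. *Fosb*, its close relative, had members 9547 bp upstream (chr7:19319665-19320254, 5.61 and 1.82) and 16399 bp upstream (chr7:19326517-19327411, 5.4 and 2.48), and a region over its RefSeq start had 5.14 and 2.08.

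The NR4A genes encode orphan nuclear receptors. *Nr4a1* had a member 7070 bp upstream of the gene (chr15:101246063-101246832) with 5.92 in WT and 1.04 in cKO, the most negative difference of the 9 at -4.88. The distance is from the first base of the gene, and the RefSeq start with a window, 12944 bp inside the gene, lay in a region with 5.19 and 2.44. *Nr4a3* had a member 1495 bp upstream (chr4:48042744-48043583) with 7.08 and 2.24. The region over the *Nr4a3* RefSeq start had 6.56 and 3.48 and kept a cKO peak, so at this gene the distal region lacked a cKO peak while the start had one. *Egr3* and *Egr4*, zinc finger factors, had members 1867 bp and 4131 bp away with 5.56 and 3.04, and with 3.97 and 3.56. The *Egr4* member, at -0.41, was the least different of the 9. *Ier2* had one at 1111 bp with 4.81 and 2.76.

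RNA-seq was not used to choose the regions, so the nearest genes could be tested in it. Of the 796, 608 were matched to the TPM table, 243 of these were listed at 0 in all 6 libraries, and 254 passed the filter of at least 1 TPM in at least 3 libraries. None of the 254 differed between cKO and WT at an adjusted p under 0.05 with limma (lowest adjusted p = 0.124), where 0.0057% of 17555 genes were higher and 0.0% lower. With so few genes called at all, this does not show that RNA was unchanged. The paper used another test, DESeq2, and called many more genes, with *Fos* among those lower in cKO. The single gene called was *Gm47101*, no nearest gene, at 0 TPM in the 3 WT libraries and 41.0, 52.1 and 55.2 TPM in cKO. At an unadjusted p under 0.05, 30 nearest genes were higher (11.8%, with 11.9% of all genes) and 21 were lower (8.27%, with 6.45% of all genes). Scaling by the median of ratios turned this split, to 20 higher (7.84%, with 7.56%) and 32 lower (12.5%, with 9.53%), and leaving out single libraries gave 15 to 39 higher and 11 to 25 lower. All 3 cKO libraries lay above all 3 WT libraries for 45 genes (17.7%, with 18.7%), and below for 21 (8.27%, with 7.18%).

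The median log2 fold change of the nearest genes was 0.12, and that of all genes tested was 0.16. Fold changes are of TPM + 1 and understate those of low genes. The size of the ATAC-seq difference and the RNA fold change of the nearest gene were not related in these values (r = 0.02 over 254 genes, description only). Nearest genes within 10000 bp had a median of 0.13 (141 genes) and those farther away 0.1 (117 genes). For nearest genes whose own ends were open in both WT libraries alone the median was 0.18 (127 genes), and with no region at their ends it was -0.05 (112 genes). At an unadjusted limma p under 0.05, 19 of the former were higher and 9 lower (15% and 7.09%). Of the latter, 8 were higher and 12 lower (7.14% and 10.7%). The shares over all genes tested were 11.9% and 6.45%. Among the 13 nearest genes whose ends had a cKO peak as well, 3 were higher and 0 lower. Differences between these groups were not tested.

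**Figure D4:**
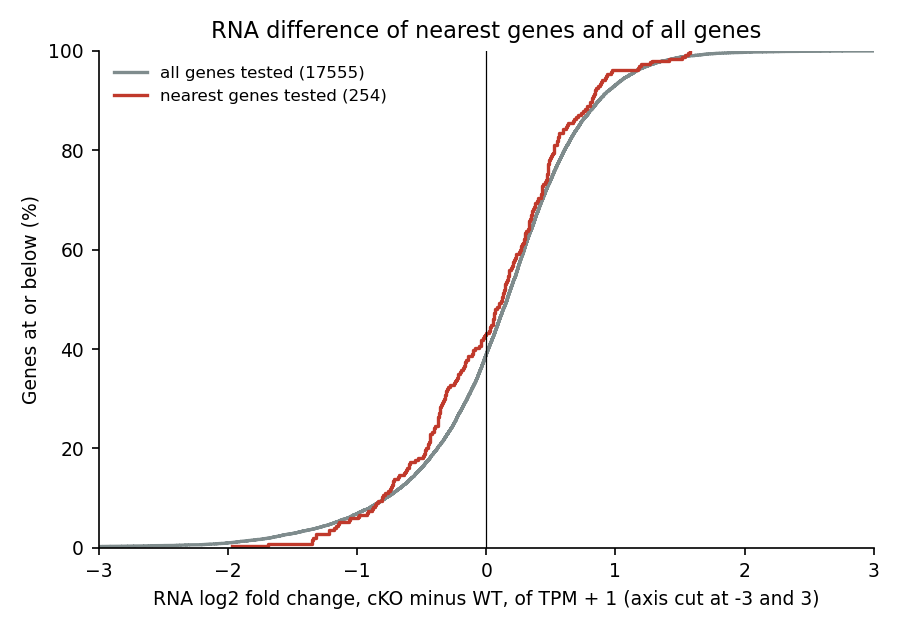
Cumulative share (%) of genes by RNA log2 fold change (cKO minus WT, of TPM + 1), for the 254 nearest genes tested (red) and for all 17555 genes tested (grey). The curves run close together, with medians of 0.12 and 0.16.

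All 7 immediate early genes nearest to members had a negative fold change, with a median of -0.76, and none passed the test. The other 23 genes of the list had a median of -0.62, with 22 negative. Their fold changes ranged from -2.65 to 0.28, and those of the 7 from -1.21 to -0.37. Every cKO library lay below every WT library for 1 of the 7 and for 8 of the other 23, with 7.18% over all genes tested. *Fos* was 3730, 2510 and 4350 TPM in WT and 1540, 1320 and 2570 TPM in cKO (log2 fold change -0.99 ± 0.35 SE, limma adjusted p = 0.209). The groups overlapped through a single pair, WT replicate 2 and cKO replicate 3. *Fosb* was 112, 72.0 and 155 TPM in WT and 47.9, 30.4 and 75.6 TPM in cKO (-1.15 ± 0.41, adjusted p = 0.21), overlapping through the same pair of libraries. Within each same-numbered pair the cKO library was lower for both genes, and a fit that adds the replicate number as a block gave an adjusted p of 0.115 for *Fos* and 0.076 for *Fosb*. Over all alternatives run, nearest genes outside the list reached limma adjusted p-values as low, such as 0.0633 for *Mir670hg* and 0.0743 for *Got1*. *Ier2* was 584, 1090 and 320 TPM in WT and 288, 281 and 199 TPM in cKO (-1.21 ± 0.44, adjusted p = 0.216; -0.77 without WT replicate 2). It alone of the 7 had every cKO library below every WT library, at an exact two-sided permutation p of 0.1, the smallest that 3 against 3 can give.

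*Nr4a1* was 48.8, 27.3 and 42.7 TPM in WT and 23.2, 36.4 and 18.6 TPM in cKO (-0.6 ± 0.34, limma adjusted p = 0.386). *Egr3*, *Egr4* and *Nr4a3* were near the filter, with means of 2.29, 4.41 and 1.64 TPM in WT and 0.849, 1.0 and 1.13 TPM in cKO. Most of the *Egr4* mean in WT came from replicate 2, at 11.7 TPM, and without that library its fold change was 0.23 instead of -0.74. The strong ATAC-seq signal beside *Nr4a3* thus stood beside a gene with little RNA.

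**Figure D5:**
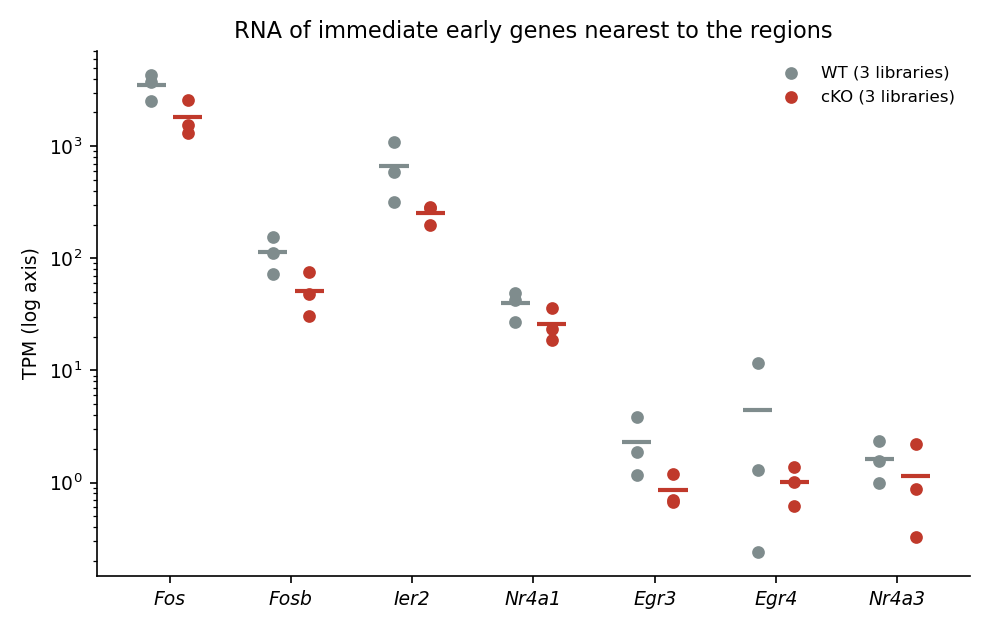
TPM (log axis) of the 7 immediate early genes nearest to members, 1 point per library and a line at the mean of each group of 3. WT points (grey) tend to lie above cKO points (red), and the groups overlap for every gene except *Ier2*.

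Among the other nearest genes, *Cxcr4* and *Vav1* were among the 8 with the largest negative fold changes without overlap. *Cxcr4*, a chemokine receptor, was 8.01, 3.78 and 7.12 TPM in WT and 2.28, 2.21 and 1.0 TPM in cKO (-1.35 ± 0.37, limma adjusted p = 0.151), and its member had 4.18 and 2.94. *Vav1*, an exchange factor of lymphocyte signaling, was 44.1, 22.4 and 52.1 TPM in WT and 18.3, 9.73 and 15.6 TPM in cKO (-1.34 ± 0.39, adjusted p = 0.159), and its member, 3129 bp upstream, had 4.55 and 2.65. The summed T cell and myeloid markers given above were lower in the same cKO libraries, and their part in these values was not tested. *Pdcd1*, which encodes the T cell receptor PD-1 and was named after its values were seen, had 2 members with 5.64 and 2.35 and with 4.22 and 0.85, and its RNA was 56.7, 14.6 and 58.0 TPM in WT and 13.1, 5.29 and 16.9 TPM in cKO (-1.69 ± 0.62, adjusted p = 0.222).

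*Id2*, an inhibitor of helix-loop-helix factors, was 457, 314 and 518 TPM in WT and 217, 164 and 234 TPM in cKO (-1.05 ± 0.27, limma adjusted p = 0.139), with no overlap, and its member 2514 bp upstream had 4.33 and 2.25. *Bbc3*, which encodes the pro-apoptotic protein PUMA, was 5.35, 13.3 and 1.84 TPM in WT and 1.73, 1.16 and 1.66 TPM in cKO (-1.35 ± 0.57, adjusted p = 0.271). Its WT mean rested largely on replicate 2, without which the fold change was -0.76. *Anxa1*, with 2 members, and *Vrk2* were also lower in every cKO library, at -1.18 and -1.14. The noncoding RNA *Gm33782* (-1.22) was 2.28, 1.1 and 2.05 TPM in WT and 0.0, 0.666 and 0.0 TPM in cKO. *Gm33104* (-1.17), also noncoding, was 3.88, 1.31 and 2.45 TPM in WT and 0.312, 0.375 and 0.915 TPM in cKO. Both noncoding RNAs passed the filter of at least 1 TPM only through the WT libraries. Their lack of overlap was therefore fixed by the filter. *Il6st*, the shared receptor of the IL-6 family, overlapped between groups, at 37.1, 88.0 and 82.2 TPM in WT and 37.3, 43.6 and 88.3 TPM in cKO.

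Other nearest genes had positive fold changes without overlap. *Got1*, an aspartate aminotransferase, was 107, 97.6 and 86.7 TPM in WT and 273, 223 and 178 TPM in cKO (1.18 ± 0.23, limma adjusted p = 0.124), although its member 5690 bp upstream had 4.02 in WT and 2.69 in cKO. *Brinp1*, a neuronal gene, was 14.1, 17.9 and 10.8 TPM in WT and 42.6, 40.3 and 26.3 TPM in cKO (1.29 ± 0.3, adjusted p = 0.125), with a member 186362 bp away. *Mir670hg* (1.54), *Col12a1* (1.27), *Ttc8* (1.2), *Psd3* (0.98), *Hlf* (0.97) and *Las1l* (0.93) likewise had every cKO library above every WT library. The summed rod markers were higher in the same cKO libraries, and their part was not tested. *Slc2a3*, beside one of the strongest members, was 48.9, 57.4 and 52.0 TPM in WT and 98.6, 74.4 and 63.5 TPM in cKO (0.55 ± 0.23, adjusted p = 0.271).

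The nearest genes with the most RNA included *Fos*, *Gm12671*, *Malat1*, *Hsp90aa1*, *Ptma*, *Eno1* and *Glul*, with mean TPM from 2670 down to 1100, and none of these 7 separated the groups. *Gm12671* is listed as a pseudogene, and reads of such copies can be shared with the parent gene. *Malat1*, a nuclear noncoding RNA with 2 members, was 2770, 947 and 1550 TPM in WT and 2940, 3410 and 2180 TPM in cKO (0.81 ± 0.42, limma adjusted p = 0.347), and the fold change was 0.43 without WT replicate 2. *Ccnh*, nearest to the strongest member, was 54.6, 18.0 and 24.7 TPM in WT and 128, 153 and 35.2 TPM in cKO (1.58 ± 0.63, adjusted p = 0.251), with overlap. *Rims1*, which encodes a protein of the presynaptic active zone, had a fold change of -0.04 ± 0.41 beside members with differences of -2.19 and -2.12.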

How the data were processed

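ATAC-seq covered 2 WT and 2 cKO libraries and RNA-seq 3 of each, grouped by their labels. The authors trimmed reads with Trimmomatic, aligned ATAC-seq reads with Bowtie2 2.3.5.1 to GRCm38, called peaks (MACS2 2.2.5 per the labels) and compared groups with DiffBind. The deposited Conc values are log2 mean normalized reads per group. The deposited TPM come from Salmon 1.0.0 and tximport as run by the authors. The authors' own columns of fold changes and p-values were not used. Depth is not given for either assay, so no counting error of a TPM or Conc value can be stated. Each of the 16600 regions overlaps peaks of at least 2 libraries.

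Members were found by overlap with the peak lists (coordinates printed from 1) and by distance from RefSeq genes of GRCm38.p6. 30 regions on sequences without gene coordinates were not placed. RNA was compared with limma 3.58.1 in R 4.3.3 (trend) on log2(TPM + 1), TPM at least 1 in at least 3 of 6 libraries, with Benjamini-Hochberg adjustment. Functions were checked against bedtools and on simulated data. Python 3.11.15, numpy 2.4.6, pandas 2.3.3 and scipy 1.17.1 were used. Nearest genes were matched to TPM rows by symbol, 3 by synonym, and 426 of 796 had a promoter window. Promoter motifs were counted on both strands.

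Members, lists and tests were chosen with earlier results of these data known. Regions were named as the 8 highest in WT, the 8 most negative, the 5 farthest, those nearest the distance limit and runs of members. Genes were named as their nearest genes, the 8 with the highest TPM, the 8 largest rises and falls without overlap, and nearest genes in a list; others are said to be named after their values were seen. A result that the rule names is not reported here. Same-numbered RNA-seq libraries correlated at 0.334, 0.101 and 0.425 in their deviations from group means, and differently numbered ones at -0.386 to 0.193. Pairing by replicate number is thus uncertain, and a block on it was run as an alternative. Other alternatives were a reciprocal overlap of 50%, a distance of 5000 bp, protein-coding genes alone, a 4-fold difference, a pseudocount of 0.1, other filters, scaling by the median of ratios, no trend, other definitions of the nearest gene, leaving out each library, and, added after seeing the data, centring on all regions.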

Additional observations from a re-analysis of the deposited data

How the results depend on the processing

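With a reciprocal overlap of 50% the median difference was -2.03 and 92.4% of members were over 2-fold lower. With protein-coding genes alone there were 1280 members, with a median of -2.03. Over 4-fold lower were 48.0%. Centred on the median of all regions, a choice made after seeing the data, the median was -0.37 and 23.3% were over 2-fold lower. Leaving out a WT library could not change the set, since every region has peaks in at least 2 libraries. Without each ATAC-seq library in turn, members numbered 840 to 894, with 87.4 to 90.4% over 2-fold lower. Only the membership changed, since the group values of Conc still hold the library left out.

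No nearest gene was called under any alternative run. Over all genes, 1 was called lower with the replicate block (*Igkv8-21*) and 4 higher without the trend (*Gm47101*, *1700087M22Rik*, *Gm49671* and *Snhg9*), and leaving out libraries gave 0 to 1 lower (*Ighv1-58* without WT replicate 2, *Pdcd5-ps* without cKO replicate 1, *Gm10175* without cKO replicate 3), none of them a nearest gene. The block changed no other call. For ATAC-seq, no paired analysis was possible because the table gives group values alone. At an unadjusted p under 0.05, scaling by the median of ratios gave 20 higher and 32 lower nearest genes (7.84% and 12.5%, with 7.56% and 9.53% of all genes), with a median fold change of -0.03 (0.01 over all genes). Leaving out a library gave 15 to 39 higher (19 without WT replicate 3, 15 without cKO replicate 2) and 11 to 25 lower (14 without WT replicate 3, 13 without cKO replicate 1, 11 without cKO replicate 2), that is 5.91 to 15.4% and 4.33 to 9.84%, where all genes gave 5.89 to 13.5% and 3.97 to 7.9%. Taking the nearest protein-coding gene gave 72 higher and 34 lower of 557 (12.9% and 6.1%), and the nearest tested gene 91 and 46 of 721 (12.6% and 6.38%), beside 11.9% and 6.45% of all genes.

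Of 38 named genes tested, 31 kept their direction in every alternative in which they were tested. Scaling reversed *Dusp6* (-0.12), *Eea1* (-0.11), *Eno1* (-0.01), *Ndufa4* (-0.04) and *Ptma* (-0.06). Leaving out libraries gave ranges that crossed 0 for *Dusp6* (-0.17 to 0.22), *Eea1* (-0.11 to 0.38), *Egr4* (-1.45 to 0.23), *Eno1* (-0.14 to 0.56), *Ndufa4* (-0.26 to 0.56), *Ptma* (-0.13 to 0.3) and *Rims1* (-0.35 to 0.24). None of these passed the test in any setting. For the other changes the cause was not tested.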

Other observations

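Members on chromosome X were few and differed more than the others. The 11 had a median Conc of 4.2 in WT and 0.83 in cKO (difference -4.25, range -5.11 to -1.65), compared with 3.81 and 2.04 for the 828 autosomal members, and 4 of the 11 had the lowest cKO value in the table. They included regions near *Eif2s3x*, a translation initiation factor gene (5.52 and 1.24), *Las1l*, which acts in ribosome assembly (5.48 and 1.41), and *Gpkow* (3.5 and -0.75). The region with the smallest difference lay near *Btbd35f25* (3.8 and 2.15). These genes were named after their values were seen.

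The chromosome X values stood apart at other positions too. Median differences of regions open in both WT libraries alone were -3.47 for 45 on X and -1.97 for 1731 on autosomes inside genes, and -3.49 for 187 on X and -2.67 for 6339 on autosomes at gene ends. Peaks on X made up 1.51% and 0.991% of all peaks in the WT libraries and 0.268% and 0.384% in the cKO libraries, while chromosome Y held 9, 5, 7 and 8 peaks. In RNA-seq, from other libraries, *Las1l*, the X-linked nearest gene above, was 63.0, 97.5 and 65.6 TPM in WT and 137, 138 and 152 TPM in cKO, with every cKO library higher (limma adjusted p = 0.138). The Y-linked gene *Ddx3y* was 152, 155 and 245 TPM in WT and 184, 182 and 218 TPM in cKO. *Xist*, expressed from the inactive X of female cells, was at most 0.0286 TPM in WT and 0.0429 TPM in cKO. The study used mice of both sexes, and the labels do not give the sex of the ATAC-seq animals, so for the X values sex and genotype cannot be told apart.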
